A study of Mus musculus with 2 samples.

Results

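The miR-466, miR-467 and miR-669 families are groups of closely related mouse miRNAs, and most of their genes lie inside Sfmbt2 on chromosome 2. The members are the 10 miRNAs of these families among 69 that were listed for a difference between cuprizone (CPZ) and control brain and could be located in the deposited values. They were chosen by their measured fold change, with a threshold of 1.5-fold, so their directions and folds describe them and were not tested. Among the 10 names, mmu-miR-466a-3p and mmu-miR-466e-3p fell on the same pair of values, and the study printed the same sequence for both. This left 9 pairs among 6653 distinct pairs over 36249 probe sets. Of these 9, 5 were higher in CPZ and 4 were lower. Among the members, mmu-miR-467d-3p lay furthest above control, 3.2-fold higher in CPZ, and mmu-miR-669k-5p furthest below it, 2.08-fold lower.

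RNA was hybridized to 2 Affymetrix miRNA 4.0 arrays, 1 for a CPZ brain sample from mice given a 0.2% CPZ diet for 6 weeks and 1 for a control brain sample from age-matched mice on normal chow. All mice were C57BL/6 males, bought at 7 weeks of age and acclimated for 1 week. The tissue was labelled cerebellum, whereas the methods name the cerebrum, and the number of mice behind each array was not given in the sources used here. CPZ binds copper and is toxic to oligodendrocytes, which make myelin, and feeding it is a model of demyelination without a genetic lesion. With 1 array per group there was no replicate error, no test could be made, and precision is limited by how few arrays there were. In bulk tissue, fewer cells of a type and less RNA per cell cannot be told apart.

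miRNAs are short RNAs that guide repression of mRNAs with matching sites, mainly through the seed near their 5′ end. A gene is transcribed into a hairpin, the stem-loop, whose arms give the 5p and 3p mature forms. Sfmbt2 encodes a Polycomb-group protein, is expressed from the paternal allele in mouse placenta, and carries in an intron a large tandem array of miRNA genes that is particular to rodents. Loss of that array impairs the mouse placenta. Its miRNAs derive from repeated sequence, so many copies share a name and nearly the same sequence, and little is known of them in adult brain. Among the members, miR-669a is known in mouse to repress MyoD, a muscle-determining factor, in heart progenitor cells.

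The sequences are shown first because family members are built on repeats of alternating bases, which a name or a fold does not convey. Mature sequences of 2 of the 10 members, mmu-miR-467f and mmu-miR-669n, were matched by name in the RefSeq table (GRCm38.p6). They are set out with 3 relatives of the same families, with the seed (bases 2 to 8) in capitals. The relatives are the 3p arm of the hairpin that gives mmu-miR-466i-5p, and for each matched member a family sequence from another gene that shares a long run of bases with it.
mmu-miR-467f, member, higher in CPZ, chr11:69635419-69635439, minus strand: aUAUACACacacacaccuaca
mmu-miR-669n, member, lower in CPZ, chr3:115979905-115979924, plus strand: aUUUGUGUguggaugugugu
mmu-miR-466i-3p, partner arm of a member lower in CPZ, chr13:17747552-17747573, plus strand: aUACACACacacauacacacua
mmu-miR-466q, relative of miR-467f, chr3:28419988-28420007, plus strand: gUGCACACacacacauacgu
mmu-miR-466k, relative of miR-669n, chr3:85467396-85467418, plus strand: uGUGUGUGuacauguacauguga

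The 2 matched members lie on opposite sides of the repeat, and the direction of the other members divided in that way in part. In the sequences the study printed, miR-466i-5p and miR-669k-5p, both lower in CPZ, hold UGUGUGU as miR-669n does. The exception is miR-669a-5p, which holds it and was higher. There, miR-467d-3p, higher in CPZ, holds ACACACA as miR-467f does. The exception is miR-466f-3p, which holds it and was lower. The sequence of miR-466a-3p and miR-466e-3p holds neither. Whether direction goes with the repeat was not tested. mmu-miR-467f had no G and was 85.7% A and C, with an alternating run of 12 bases that starts at base 5. mmu-miR-669n had no C and was 90.0% G and U, with an alternating run of 8 bases that starts at base 4. The longest stretch on which they could pair was the 8 bases UGUGUGUG of miR-669n. No other mature sequence in the table carried the seed of either, so neither shares a seed with another family sequence matched here. With miR-466q, miR-467f shared a run of 11 bases, and with miR-466i-3p a run of 13. miR-669n shared 8 bases with miR-466k. Among all 1674 distinct mature mouse sequences in the table, read on the mature strand as spelled, UGUGUGU occurred in 11 (0.657%) and ACACACA in 5 (0.299%). Of the 8 sequences of these families and of miR-297 matched in the table, 3 held the first and 4 the second. An alternating run as long as that of miR-669n occurred in 20 of the 1674 (1.19%), and one as long as that of miR-467f in 3 (0.179%), against a median longest run of 4 bases. Only 2 of the 10 members were matched by name, and repeats in sequences missing from the table are not counted in these shares.

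The hairpin of miR-669n, 54 bases at chr3:115979902-115979955 on the plus strand, is printed with the mature sequence in capitals (bases 4 to 23) because it is the one member whose precursor was matched.
Mir669n: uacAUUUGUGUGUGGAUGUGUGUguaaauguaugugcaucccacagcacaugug

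The placement of the genes only partly bears out the name of an Sfmbt2 cluster. In the RefSeq annotation (GRCm38.p6), the families miR-297, miR-466, miR-467 and miR-669 had 81 genes, of which 71 lay inside Sfmbt2. These made up 71 of the 72 genes annotated within it. miR-669 had 29 of 30 genes inside, miR-466 had 23 of 28 and miR-467 had 14 of 17. The genes of miR-467f (chromosome 11), miR-466i (chromosome 13) and miR-669n (chromosome 3) lay outside. miR-466f had 3 genes inside and a 4th, Mir466f-4, on chromosome 13. The other 6 names have their genes within Sfmbt2 only, where the annotation's unlettered Mir466 was taken as the gene of miR-466a-3p. Genes were assigned to members by name alone, and whether genes of other names give the same mature form was not checked.

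Inside Sfmbt2, the 4 genes of lower members had ranks 2, 7, 10 and 16, and the genes of higher members had rank 15, for Mir669a-3, and ranks 19 to 58. Mir467d and Mir466, whose products were both higher in CPZ, were direct neighbours, the 54th and 55th family genes along Sfmbt2. Mir669k, the gene of a member lower in CPZ, was the 16th and directly followed Mir669a-3, a gene of the higher miR-669a-5p. The other 3 genes of lower members in Sfmbt2 were those of miR-466f-3p, a single pair of values that may also stem from Mir466f-4 on chromosome 13. The 4 lower ranks thus rest on 2 pairs of values, and 12 of the higher ranks on 1. Because Mir669a-3 is 1 of 12 copies that the array does not separate, whether its product shared the direction of miR-669a-5p is not known. Of the 5 pairs higher in CPZ, 4 came from genes inside Sfmbt2 only, whereas of the 4 lower pairs 1 did, 1 had genes inside and outside, and 2 lay outside only. These are ranks and counts over 9 chosen pairs, with no test.

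**Figure D1:**
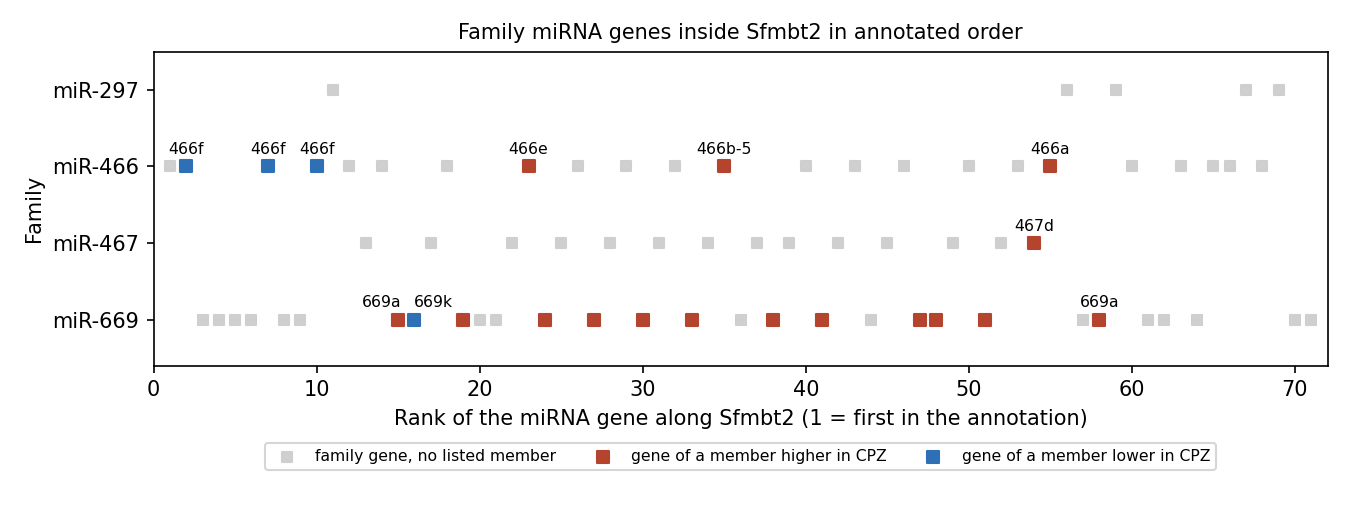
Family miRNA genes inside Sfmbt2 by rank along the gene (x axis, rank without distance) and family (y axis), with genes of members higher in CPZ in red, genes of members lower in CPZ in blue and the rest in grey. The 12 Mir669a genes are spread from rank 15 to rank 58 between genes of the other families, with Mir669k at rank 16 among them.

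The 2 miR-467 members gave the widest differences and both were higher in CPZ. The deposited log2 signal of mmu-miR-467d-3p was 3.76 on the CPZ array and 2.09 on the control array. On the linear scale this was 13.6 against 4.26, a 3.2-fold higher signal in CPZ. mmu-miR-467f, whose gene lies outside Sfmbt2, had a log2 signal of 2.68 on the CPZ array and 1.1 on the control array. Its linear signal was 6.41 in CPZ and 2.15 in control, or 2.98-fold higher. Both pairs belonged to a single probe set. Each was set beside the other distinct pairs, with no filter for mouse probes, that had a mean log2 signal within 0.5 of its own. Of these other pairs, 3 of 630 (0.476%) were as far above control as miR-467d-3p, and 13 of 1304 (0.997%) as far as miR-467f.

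Both directions occurred within miR-669. By name, mmu-miR-669a-5p had 12 genes, all inside Sfmbt2. It had a log2 signal of 3.72 on the CPZ array and 2.48 on the control array. Its linear signal was 13.2 in CPZ and 5.59 in control, 2.36-fold higher, and 13 of 576 pairs of like mean (2.26%) were as far above control. mmu-miR-669k-5p, from the gene next to Mir669a-3, was at 3.54 on the CPZ array and 4.59 on the control array. This was 11.6 in CPZ and 24.1 in control on the linear scale, 2.08-fold lower in CPZ. mmu-miR-669n, from chromosome 3, was at 4.53 on the CPZ array and 5.25 on the control array, 1.65-fold lower with linear signals of 23.1 in CPZ and 38.1 in control. For miR-669k-5p 7.92% and for miR-669n 7.04% of the pairs of like mean were as far below control. Which of the 12 Mir669a copies gave the signal cannot be told apart on this array. The pairs of values of miR-669a-5p and miR-669k-5p were each shared by 2 probe sets, and that of miR-669n belonged to 1.

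miR-466 was divided as well, with folds of 1.58 to 1.82. The pair shared by mmu-miR-466a-3p and mmu-miR-466e-3p, from different genes inside Sfmbt2, had a log2 signal of 2.30 on the CPZ array and 1.63 on the control array. Its linear signals were 4.92 in CPZ and 3.10 in control, 1.58-fold higher. mmu-mir-466b-5 is a stem-loop entry and not a mature form. Its log2 signal was 1.22 on the CPZ array and 0.56 on the control array, also 1.58-fold higher, but on linear signals of only 2.33 in CPZ and 1.47 in control. Its pair of values was shared by 10 probe sets, and that of miR-466a-3p and miR-466e-3p by 2. As large a difference in the same direction was found in 17.0% of the pairs of like mean for mir-466b-5 and in 11.7% for miR-466a-3p and miR-466e-3p.

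The other miR-466 members were lower in CPZ. mmu-miR-466f-3p was at 3.38 on the CPZ array and 4.24 on the control array, with linear signals of 10.4 in CPZ and 18.9 in control, 1.82-fold lower. mmu-miR-466i-5p, from chromosome 13, was at 4.35 on the CPZ array and 5.10 on the control array, with linear signals of 20.4 in CPZ and 34.3 in control, 1.68-fold lower. Each had a single probe set. Of the pairs of like mean, 10.4% lay as far below control as miR-466f-3p and 8.67% as far as miR-466i-5p.

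**Figure D2:**
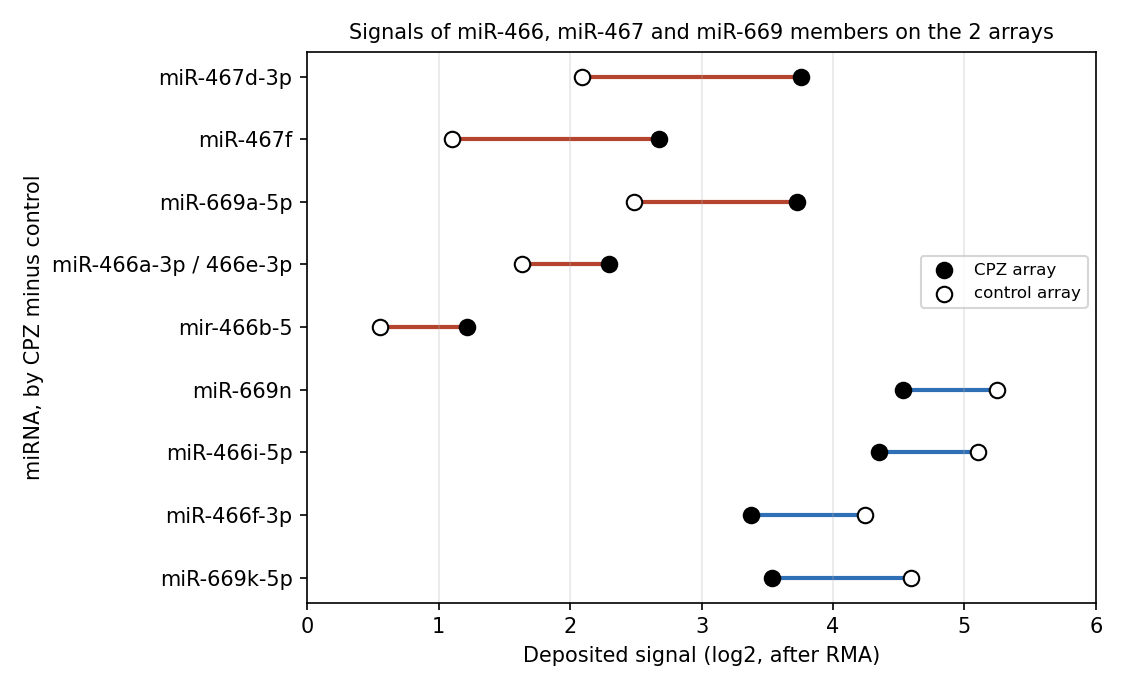
Deposited log2 signal (x axis) of each member (y axis, from most above to most below control) on the CPZ array (filled) and the control array (open), joined in red where CPZ was higher and in blue where it was lower. The CPZ values run from 1.22 to 4.53 and the control values from 0.56 to 5.25, and positions of different miRNAs are not relative amounts, since each has its own probes.

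The rule fixes both values of a member, so how direction and signal fall together is given as a description. The control value is also part of the difference, so a member higher in CPZ tends to have a low control value by construction. The 5 pairs higher in CPZ had mean log2 signals of 0.89 to 3.10, and control values of at most 2.48. The 4 lower pairs had means of 3.81 to 4.89, and control values of at least 4.24. The ranges of the 2 sets did not overlap in the mean or on the control array, while on the CPZ array they did, since miR-467d-3p and miR-669a-5p were above miR-669k-5p and miR-466f-3p there. No pair had a mean of 5 or more, and only miR-669n and miR-466i-5p reached 5, on the control array alone. The split concerns signals of different probe sets and says nothing of which miRNA was more abundant. The part of the signal range in these directions was not tested.

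Differences past 1.5-fold were frequent among the distinct pairs at low signal. The shares given above for single members are a description and no test, since the members were chosen by these same folds. The pairs of like mean were themselves shifted below control for miR-467d-3p (median log2 difference -0.18), miR-467f (-0.25), miR-669a-5p (-0.18) and miR-466a-3p (-0.25). For mir-466b-5 the median was 0.12. The study kept only probes annotated to mouse, but the deposited numbers carry no names, so that filter was not applied to the distinct pairs here. These shares are therefore not shares of mouse miRNAs alone. Of the 6653 distinct pairs, 15.1% passed 1.5-fold upward in CPZ and 19.1% passed it downward, and the median log2 difference was 0.00. At mean log2 signals of 0.5 to 2, which hold 3 of the higher pairs, 20.1% were at least 1.5-fold higher and 22.8% lower. At 2 to 3.5, where miR-467d-3p and miR-669a-5p lie, 14.3% were higher and 29.7% lower, with a median difference of -0.22. At 3.5 to 5, which holds all 4 lower pairs, 11.4% were higher and 18.6% lower. Because the members were taken for passing 1.5-fold, their count of 9 is not read against these shares. At the threshold itself, mir-466b-5 was the nearest higher member and miR-669n the nearest lower one. Within the members' range of mean signals, the nearest unnamed pairs under it were 1.496-fold in both directions.

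**Figure D3:**
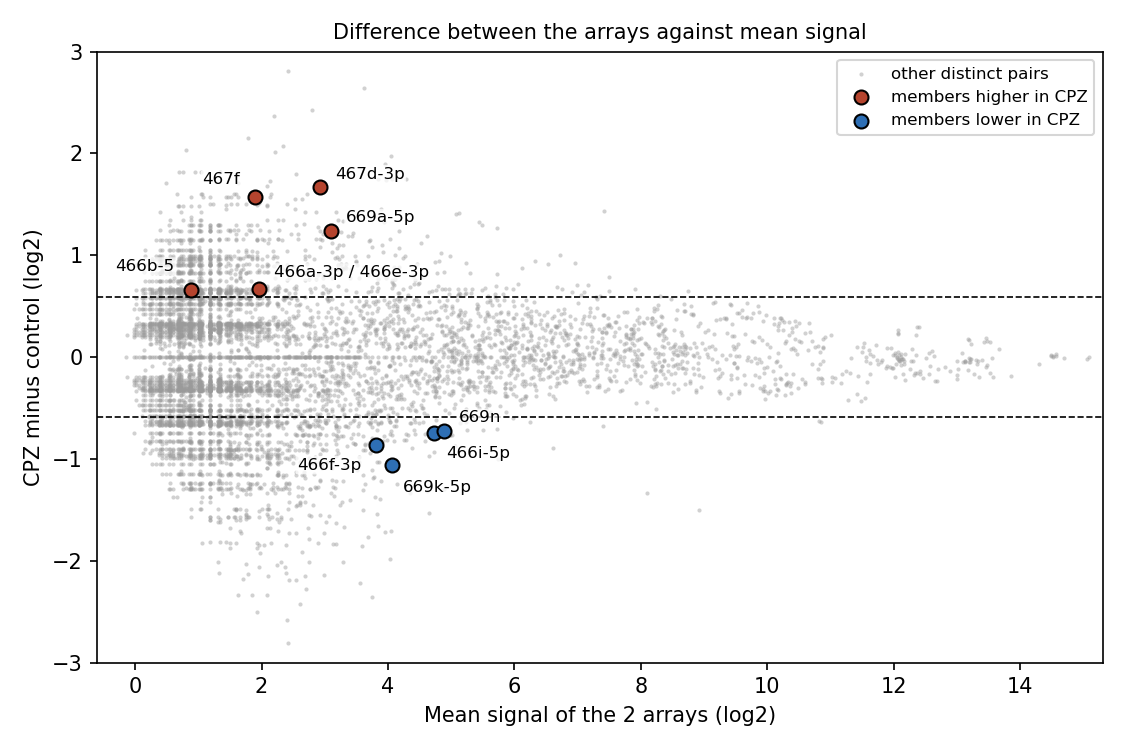
CPZ minus control (y axis, log2) against the mean signal of the 2 arrays (x axis, log2) for the distinct pairs (grey), with members higher in CPZ in red, members lower in CPZ in blue and 1.5-fold as dashed lines. The spread of the grey points narrows with signal, all 9 members lie at means of 0.89 to 4.89, and 38 pairs outside the plotted range of ±3 are not drawn.

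A fixed amount added to both linear signals shows how much of each fold rests on a few signal units. The linear differences (CPZ minus control) were 0.856 for mir-466b-5 and 1.81 for miR-466a-3p and miR-466e-3p. They were 4.26 for miR-467f, 7.62 for miR-669a-5p and 9.29 for miR-467d-3p. Below control they were -8.49 for miR-466f-3p, -12.5 for miR-669k-5p, -13.9 for miR-466i-5p and -15.0 for miR-669n. An added 0.241 brought mir-466b-5 to 1.5-fold, and an added 0.524 did so for miR-466a-3p and miR-466e-3p. For miR-467f, miR-466f-3p, miR-669n and miR-466i-5p the amount was between 6.4 and 7.4. It was 9.64 for miR-669a-5p, 13.4 for miR-669k-5p and 14.3 for miR-467d-3p. With 8 added, miR-467d-3p, miR-669a-5p and miR-669k-5p were still past 1.5-fold, and with 16 added no member was. Of the 58 distinct pairs of listed miRNAs outside these families, 35 stayed past 1.5-fold with 8 added and 23 with 16. A mean log2 signal of 5 or more was found for 0 of the 9 members and for 16 of these 58 pairs.

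**Figure D4:**
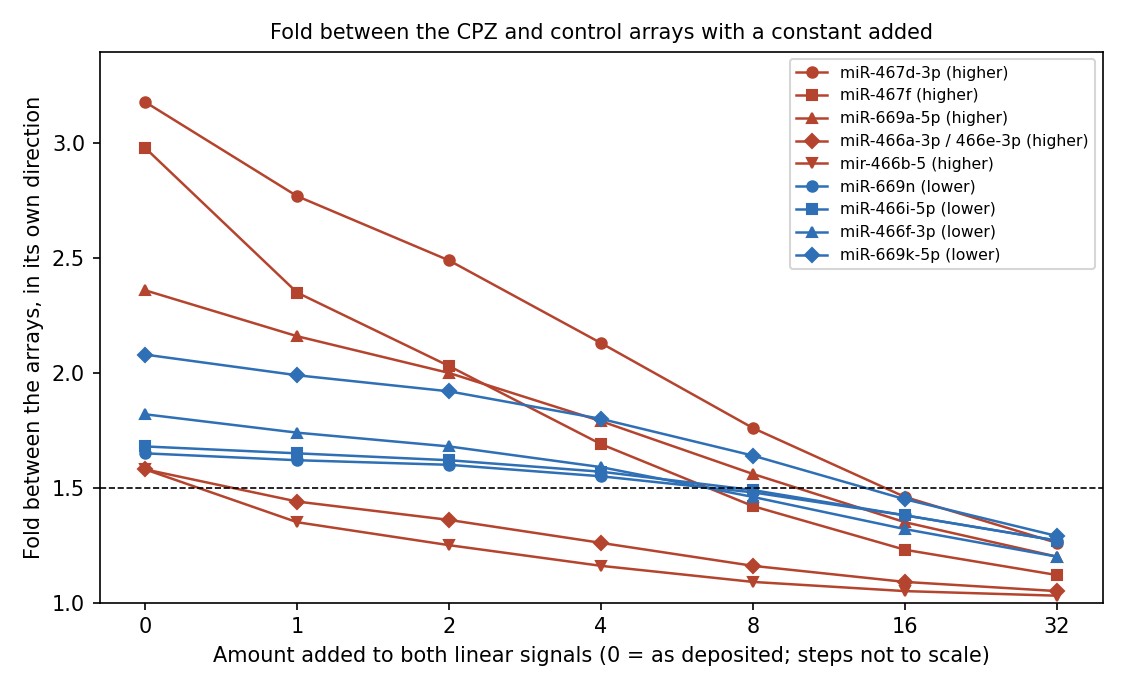
Fold between the CPZ and control arrays in its own direction (y axis) for each member after the same amount was added to both linear signals (x axis, unequal steps), with members higher in CPZ in red and lower in blue. mir-466b-5 and the pair of miR-466a-3p and miR-466e-3p drop below the dashed line of 1.5-fold with 1 added, and all 9 pairs are below it with 16 added.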

How the data were processed

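Both arrays were read with GeneChip Command Console, and the authors summarized them by RMA with DABG detection calls in Affymetrix Power Tools (versions not given in the sources used here). The deposited values are log2 signals after RMA, 1 per probe set and array, which was background corrected, normalized between the arrays and summarized over probes. Over all signal levels, 32257 of 36249 probe sets shared their pair of values with another. The deposited table numbers probe sets without names. Each listed miRNA was therefore found by its listed fold change, as signed log2, and its listed volume, the square root of the product of both log2 values, within 0.0002, and identical probe sets were counted once. Fold and volume together fix both array values, so these are no more independent of the listing than the fold. Of 675 false keys, made by crossing the fold of one member with the volume of another miRNA, 0 found a probe set. For mir-466b-5, the fold was met by 322 probe sets, the volume by 17 and both by 10. The false keys do not show which of these 10 is its own. The 1.5-fold threshold was the one by which the study had listed its miRNAs.

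The members and lists were chosen with earlier results of these data known. All 10 members are named, and other miRNAs only where sequence or position links them to a member. Sequences and gene order came from RefSeq (GRCm38.p6). Alternatives were a 2-fold threshold, added offsets, minimum means, median centring, lowess (span 0.3), quantile normalization, names counted singly and other tolerances. The matching was tested on simulated data. Unused columns of other samples numbered 0. Python 3.11.15, numpy 2.4.6, pandas 2.3.3, statsmodels 0.14.6 and matplotlib 3.10.9 were used.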

Additional observations from a re-analysis of the deposited data

How the results depend on the processing

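The direction of single members was not put to a test by these alternatives, since an offset cannot turn a sign and the shifts by centring (0.018) and lowess (-0.17 to 0.04) were small beside the members' differences. The counts of 5 higher and 4 lower pairs were the same after median centring, lowess and quantile normalization and with tolerances of 0.00005 and 0.001. Counting each name gave 6 higher and 4 lower. A 2-fold threshold left 3 higher and 1 lower. Adding 4 to the linear signals left 3 higher and 4 lower, and adding 16 left 0 and 0. Offsets of 1, 2, 8 and 32 were chosen after seeing the data. They gave 3 higher and 4 lower with 1 and with 2 added, 2 higher and 1 lower with 8, and 0 and 0 with 32. A mean of at least 3 left 1 higher and 4 lower, and a mean of at least 5 left 0 and 0 because no member lies there. No paired analysis was possible because each group had 1 array. Without detection calls, which members were above background is not known here.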
